A study of Mus musculus with 9 samples.

Results

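Age-associated B cells (ABCs) are B cells that accumulate in old mice and in autoimmune disease, and the transcription factor T-bet (gene symbol Tbx21) is the factor by which they are usually recognised. Described here are 8 transcription factor genes of the 24346 genes listed in every library: the T-box factors Tbx21 and Eomes, the zinc finger homeodomain repressors Zeb2 and Zeb1, the BTB zinc finger repressor Zbtb32, the Runt factor Runx3, and the inhibitors of E proteins Id2 and Id3. They were taken by symbol, as T-bet and Zeb2 with their close relatives and partners, at a time when their levels in ABCs were known. Their levels in ABCs are therefore given as a description without a test. Tests of these 8 genes are given only between the young and the aged follicular B cells, which is not the contrast they were chosen on. Genes of related lists, also chosen with earlier results known, are tested between ABCs and aged follicular B cells as well.

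RNA was measured in splenic B cells of C57BL6 mice in 3 groups of 3 libraries each: follicular (FO) B cells of mice aged 8 weeks (young FO B cells), FO B cells of mice aged 50 weeks (aged FO B cells) and ABCs of mice aged 50 weeks. No group carried a transgene, a deletion or a treatment. According to the study's methods, all cells were sorted as B220hi CD43-, FO B cells further as CD23+ CD21lo and ABCs as CD23- CD21lo CD11b+ CD11c+. There was no ABC group from young mice, so the effect of age on ABCs cannot be told apart from the difference between cell types. Levels are given as FPKM, a read count scaled to the length of the transcript and to the size of the library, so that genes can be compared with each other. In bulk RNA, more cells that express a gene and more RNA per cell cannot be told apart.

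T-bet binds T-box sites and, in B cells, drives class switching to IgG2a/c and a set of chemokine receptor and cytokine genes, in the way that it drives the type 1 programme of T cells and NK cells, where its relative Eomes shares part of its work. Zeb2 and Zeb1 bind E2-boxes through a pair of zinc finger clusters and recruit CtBP corepressors. In CD8+ T cells Zeb2 acts downstream of T-bet, and the pair Zeb2 and Zeb1 takes opposite sides between effector and memory cells. Id2 and Id3 lack a basic DNA-binding region, pair with the E proteins Tcf3, Tcf4 and Tcf12 and keep them off E-boxes. Id3 is the main Id gene of resting FO B cells, and Id2 that of innate and effector lymphocytes. Zbtb32 represses Ciita and MHC class II genes together with Blimp-1 (Prdm1), and Runx3 works beside T-bet at the Ifng locus.

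RefSeq promoter sequence (GRCm38.p6) was matched for 7 of the 8 genes, Zeb1 not being used here, and the 250 bases before the start were searched on both strands for 5 motifs. The 3 promoters below are shown because they belong to the pair of members with the largest rise in ABCs and to the member with the smallest difference. They are written 5′ to 3′ in the direction of the gene, with every motif match in capitals, and none overlaps an annotated exon of its gene. The Tbx21 window is chr11:97115332-97115581 (minus strand), the Zbtb32 window is chr7:30598910-30599159 (minus strand) and the Runx3 window is chr4:135120395-135120644 (plus strand).
Tbx21: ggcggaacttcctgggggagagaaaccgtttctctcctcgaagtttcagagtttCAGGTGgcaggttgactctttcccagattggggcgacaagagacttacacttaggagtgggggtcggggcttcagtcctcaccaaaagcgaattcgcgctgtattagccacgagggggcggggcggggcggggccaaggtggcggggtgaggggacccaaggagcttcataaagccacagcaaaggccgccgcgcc
Zbtb32: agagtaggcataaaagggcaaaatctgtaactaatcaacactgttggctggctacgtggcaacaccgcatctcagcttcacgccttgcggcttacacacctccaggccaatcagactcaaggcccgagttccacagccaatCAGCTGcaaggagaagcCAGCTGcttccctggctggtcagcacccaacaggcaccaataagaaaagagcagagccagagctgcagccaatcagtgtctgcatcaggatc
Runx3: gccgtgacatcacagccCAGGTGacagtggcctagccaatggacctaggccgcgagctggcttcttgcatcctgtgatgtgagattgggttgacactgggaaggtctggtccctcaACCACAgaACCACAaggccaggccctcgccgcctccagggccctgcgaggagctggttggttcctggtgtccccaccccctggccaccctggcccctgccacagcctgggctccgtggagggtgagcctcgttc

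The capitals in the Tbx21 promoter mark 1 ZEB E2-box (CACCTG, here on the minus strand), 196 bases before the start, which is at the same time an E-box (CANNTG). The capitals in the Zbtb32 promoter mark 2 E-boxes, 109 and 92 bases before the start. In the Runx3 promoter they mark an E2-box 233 bases before the start and 2 RUNX motifs (TGTGGT) 134 and 126 bases before it, both on the minus strand. A GAS motif (TTCNNNGAA), the motif of STAT factors, was found only in the Zeb2 window among the 7, and the Id2 window held 1 E-box. The windows of Id3 and Eomes held no match, and the T-box half-site GGTGTGA was in none of the 7. The Id3 window lay wholly within annotated exon sequence, and the Id2 and Zeb2 windows did so for 161 and 98 bases. A second Zbtb32 start, not used above, had a RUNX motif and an E-box in its window. A second Runx3 start, at chr4:135152545, had no match in its window. Of the other Zeb2 starts, that at chr2:45113253 held the GAS motif, and those at chr2:45110277 and chr2:45117442 held no match. Over 32851 promoters of the same length, the E-box was present in 66.2%, the E2-box in 17.2%, the RUNX motif in 14%, the GAS motif in 7.02% and the T-box half-site in 3.33%. These are letter matches, and binding was not measured.

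In the GENCODE M21 annotation of GRCm38 (the mm10 build that the files use), all 8 are protein-coding genes. Tbx21 is at chr11:97098071-97115331 on the minus strand, Eomes at chr9:118478212-118486132 on the plus strand, Zeb2 at chr2:44983632-45117395 on the minus strand and Zeb1 at chr18:5591860-5775467 on the plus strand. Zbtb32 is at chr7:30589681-30598909 on the minus strand, Runx3 at chr4:135120652-135177990 on the plus strand, Id2 at chr12:25093799-25097140 on the minus strand and Id3 at chr4:136143497-136145755 on the plus strand. Id3 and Runx3 thus lie on the same chromosome. Tbx21, Zbtb32, Id2 and Id3 overlap no other annotated gene. The antisense gene Zeb2os overlaps Zeb2, and smaller genes overlap Eomes, Zeb1 and Runx3. The library kit is not stated to keep the strand, so reads of Zeb2 and of Zeb2os cannot be told apart where they overlap.

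**Figure D1:**
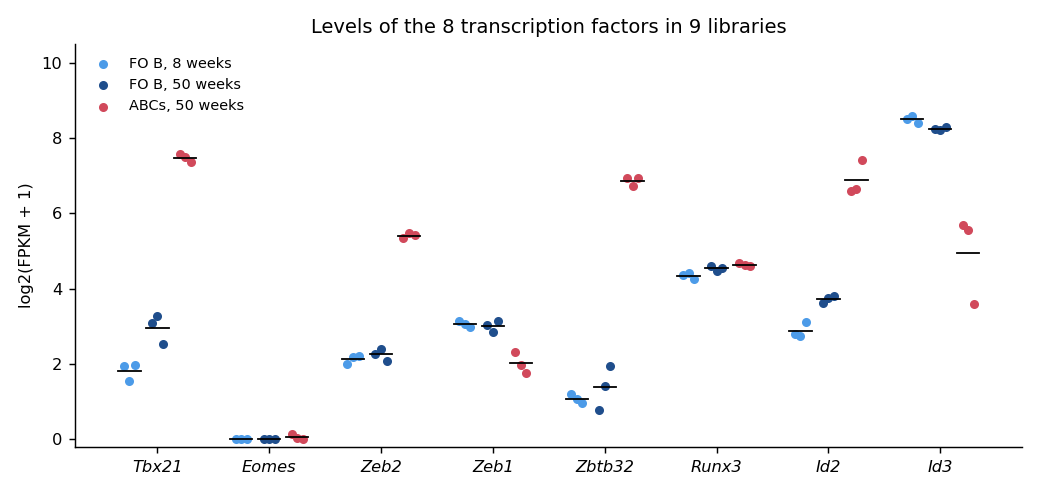
Level of each of the 8 transcription factors, as log2(FPKM + 1), in each of the 9 libraries (points) with the mean of the transformed values in each group (black bars). Tbx21, Zeb2, Zbtb32 and Id2 are high in all 3 ABC libraries, Id3 and Zeb1 are low there, Runx3 varies little and Eomes is at or near 0.

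The T-box pair was the most unequal. Tbx21 was at 2.88, 1.94 and 2.90 FPKM in young FO B cells, at 7.45, 8.72 and 4.75 FPKM in aged FO B cells, and at 189, 179 and 165 FPKM in ABCs. The 3 groups did not overlap, and the 3 ABC libraries lay close together, with a coefficient of variation of 6.68% against 29.0% in aged FO B cells. The mean in ABCs, 178 ± 11.9 FPKM (SD, n = 3), was 25.5 times that in aged FO B cells (6.97 ± 2.03, SD, n = 3) and 68.9 times that in young FO B cells (2.58 ± 0.547, SD, n = 3). On the log2(FPKM + 1) scale the differences were 4.52 (SE 0.18) and 5.65 (SE 0.13). In ABCs Tbx21 was above 93.4 to 94.6% of the genes at 1 FPKM or more in the same library, whereas in young FO B cells it was above 7.51 to 13% of them.

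Eomes was listed at 0 in all 6 FO B libraries and at 0.106, 0.0319 and 0 FPKM in ABCs. The FPKM steps correspond to 4 reads in all over the 3 ABC libraries (3, 1 and 0), at a floor of 3 reads, against 10624 reads recovered for Tbx21. Eomes was thus at the limit of what this depth can show in ABCs and was not detected in FO B cells. Of 15 other T-box genes, 13 were below 1 FPKM in all 9 libraries, and Tbx1, Tbx4 and T (Brachyury) were at 0 throughout. Only Tbx6 and Mga were high enough to be tested between ABCs and aged FO B cells. Tbx6 was lower in ABCs by 0.72 on the log2 scale (SE 0.23, limma adjusted p = 0.0447), at 1.31 ± 0.63 against 2.72 ± 0.36 FPKM (SD, n = 3), a call that was lost under 11 of the alternatives tried. Mga did not pass (adjusted p = 0.135). Tbx21 was thus the T-box gene with the highest level in each ABC library, among those listed here.

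The ZEB pair changed places. Zeb2 was at 3, 3.54 and 3.63 FPKM in young FO B cells, at 3.85, 4.31 and 3.23 FPKM in aged FO B cells, and at 39.9, 43.3 and 41.7 FPKM in ABCs. The FO B groups overlapped each other, and every ABC library lay far above both. The ABC mean of 41.6 ± 1.68 FPKM (SD, n = 3) was 11 times that of aged FO B cells (3.8 ± 0.538) and 12.3 times that of young FO B cells (3.39 ± 0.340), or 3.16 (SE 0.11) and 3.28 (SE 0.09) on the log2 scale. Zeb2 had a coefficient of variation of 4.03% in ABCs, between the 2.72% of Runx3 and the 6.68% of Tbx21. The mean of Zeb2os was 8.36 ± 0.498 FPKM in ABCs against 1.45 ± 0.574 FPKM in aged FO B cells (SD, n = 3), and its part in the Zeb2 level was not tested.

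Zeb1 went the other way. It was at 7.85, 7.41 and 6.91 FPKM in young FO B cells, at 7.20, 6.24 and 7.85 FPKM in aged FO B cells, and at 4, 2.93 and 2.37 FPKM in ABCs. The FO B groups overlapped and the ABCs lay below both. The ABC mean was 3.10 ± 0.827 FPKM (SD, n = 3), 2.29 times lower than in aged FO B cells, a log2 difference of -0.99 (SE 0.17). Of the summed FPKM of Zeb2 and Zeb1, Zeb2 made up 27.7, 32.3 and 34.5% in young FO B cells, 34.8, 40.8 and 29.2% in aged FO B cells, and 90.9, 93.7 and 94.6% in ABCs. Zeb1 was therefore the more abundant of the pair in all 6 FO B libraries, and Zeb2 in all 3 ABC libraries. The sum itself rose with Zeb2, from 10.9 ± 0.298 FPKM in aged FO B cells to 44.7 ± 1.27 FPKM in ABCs (SD, n = 3).

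**Figure D2:**
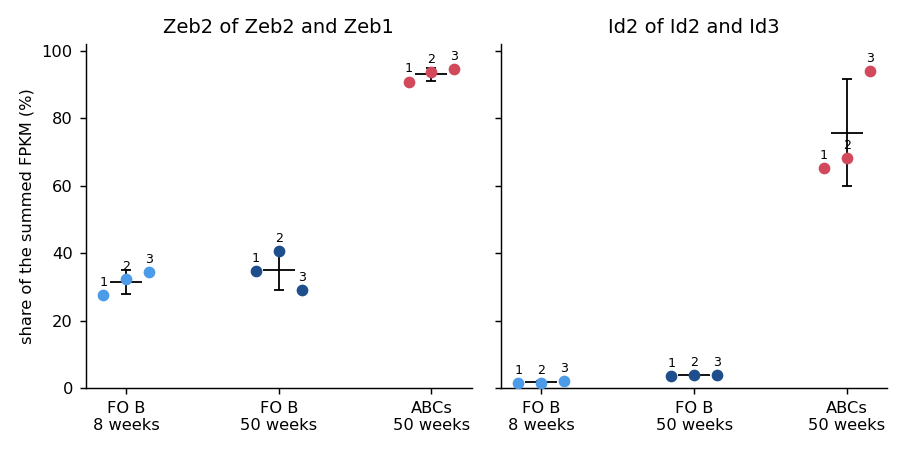
Share of Zeb2 in the summed FPKM of Zeb2 and Zeb1 (left) and of Id2 in the summed FPKM of Id2 and Id3 (right), in percent, for each library (points, with the replicate number) and as mean ± SD over 3 libraries (black). Both shares are high in ABCs, and ABC replicate 3 has the highest Id2 share, 93.9%.

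Zbtb32 had the largest relative difference of the 8 genes. It was at 1.30, 1.09 and 0.941 FPKM in young FO B cells, at 0.708, 1.68 and 2.88 FPKM in aged FO B cells, and at 123, 105 and 122 FPKM in ABCs. These FO B levels rest on few reads, 46 over the 3 young libraries and 75 over the 3 aged ones, against 4636 in ABCs. The ABC mean was 116 ± 9.97 FPKM (SD, n = 3), 66.4 times that of aged FO B cells (1.75 ± 1.09) and 105 times that of young FO B cells (1.11 ± 0.178). On the log2(FPKM + 1) scale, which understates changes of genes this low, the differences were 5.49 (SE 0.27) and 5.80 (SE 0.10). The aged FO B libraries spread more than the young ones, with a coefficient of variation of 61.9% against 16%.

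Runx3 varied least among the 7 fitted members, between 18.2 and 24.6 FPKM. It was at 19.4, 20.3 and 18.2 FPKM in young FO B cells, at 23.4, 21.3 and 22.5 FPKM in aged FO B cells, and at 24.6, 23.7 and 23.3 FPKM in ABCs. The aged FO B cells and the ABCs overlapped, and the young FO B cells lay below both. The ABC mean of 23.9 ± 0.650 FPKM was 1.07 times the aged FO B mean of 22.4 ± 1.01 FPKM (SD, n = 3), a log2 difference of 0.09 (SE 0.07), and 1.24 times the young FO B mean of 19.3 ± 1.09 FPKM, a log2 difference of 0.30 (SE 0.08). Among 6 other RUNX and core-binding factor genes, the partner subunit Cbfb had 36.5 ± 3.6 FPKM in ABCs against 44.4 ± 3.5 FPKM in aged FO B cells (limma adjusted p = 0.0584), and Runx1 at 12.0 ± 1.6 and 13.9 ± 1.3 FPKM (adjusted p = 0.239). Of the 4 that were tested 1 passed, beside 35.9% of all genes in either direction. It was the corepressor Cbfa2t3, with a log2 difference of 1.06 (SE 0.19, adjusted p = 0.00463), at 8.54 ± 2.1 FPKM in ABCs against 3.51 ± 0.45 FPKM.

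The Id pair also changed places, but here the ABC libraries did not lie together. Id2 was at 5.95, 5.69 and 7.69 FPKM in young FO B cells, at 11.4, 12.6 and 12.9 FPKM in aged FO B cells, and at 95.4, 98.8 and 170 FPKM in ABCs. The 3 groups did not overlap, and within the ABCs replicate 3 stood above the other two. Id3, which in FO B cells was above 96.6 to 97.5% of the genes at 1 FPKM or more, was at 362, 385 and 339 FPKM in young FO B cells, at 302, 294 and 311 FPKM in aged FO B cells, and at 51.0, 46.2 and 11.1 FPKM in ABCs. Again no groups overlapped, and replicate 3 stood apart, at the low end. Id2 was 9.87 times higher in ABCs (121 ± 42.1 FPKM) than in aged FO B cells (12.3 ± 0.827 FPKM, SD, n = 3), and Id3 was 8.38 times lower (36.1 ± 21.8 against 303 ± 8.32 FPKM). Without ABC replicate 3 these ratios were 7.89 and 6.22, and the log2 difference of Id3 went from -3.29 (SE 0.51) to -2.61.

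Of the summed FPKM of Id2 and Id3, Id2 made up 1.76 ± 0.402% in young FO B cells and 3.91 ± 0.251% in aged FO B cells (SD, n = 3). In ABCs it made up 65.2, 68.1 and 93.9%. Id3 was thus the dominant Id gene in all FO B libraries, and Id2 in all ABC libraries, with or without replicate 3. The sum of the pair did not hold level: it was 315 ± 8.56 FPKM in aged FO B cells and 158 ± 20.4 FPKM in ABCs (SD, n = 3). The other Id genes, Id1 and Id4, were below 1 FPKM in all 9 libraries.

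ABC replicate 3 also differed from the other 2 ABC libraries beyond the Id genes. Its correlation with them over 10375 genes was 0.964 and 0.958, against 0.980 between the other two. Fcer2a and Cr2, both high in FO B cells, were lower in it. Fcer2a, which encodes CD23 and by which the populations were parted, was at 4.15, 6.95 and 0.463 FPKM in ABC replicates 1 to 3, and Cr2, which encodes CD21, at 4.93, 8.39 and 0.745 FPKM. Fcer2a in ABCs as a group was at 0.540% of its aged FO B mean, where Id3 was at 11.9%. The part of remaining FO B cells in the Id3 level of ABCs was not tested. Of the other members, Tbx21, Zeb2, Zbtb32 and Runx3 in replicate 3 were at 0.898, 1, 1.07 and 0.965 times the mean of the other 2 ABC libraries, and Zeb1 at 0.685 times.

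Of all genes with mean FPKM of 1 or more, 35.9% passed limma's test between ABCs and aged FO B cells at an adjusted p under 0.05 (19.4% higher and 16.5% lower), 40.7% between ABCs and young FO B cells, and 0.464% between aged and young FO B cells (0.346% higher and 0.119% lower). In 52.6% of genes the ABC and aged FO B libraries did not overlap, and in 55.3% the ABC and young FO B libraries did not. The former held for 6 of the 7 members in this fit, Runx3 being the exception. These shares are printed as background, since the members were chosen with their ABC levels known. The log2 differences of Tbx21, Zeb2, Zbtb32 and Id2 stayed positive and those of Zeb1 and Id3 negative in both ABC comparisons under all 16 alternatives. The alternatives use the same libraries, so the kept signs are a description and no independent support. Sizes did change: the Zbtb32 difference from aged FO B cells ranged from 5.18 to 6.26, and that of Zeb2 from 3.07 to 3.46.

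**Figure D3:**
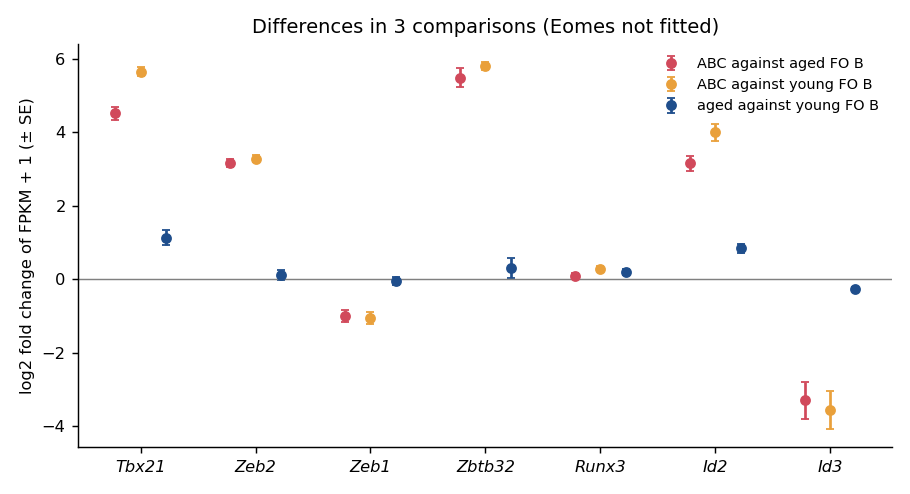
Log2 difference of FPKM + 1 (± SE from limma) for the 7 fitted members in the comparisons of ABCs with aged FO B cells, ABCs with young FO B cells, and aged with young FO B cells. Both ABC comparisons use the same 3 ABC libraries. Between aged and young FO B cells only Id2 and Tbx21 lie more than 0.5 from 0.

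The comparison of aged with young FO B cells asked whether the same genes had moved with age in cells outside the ABC gate, and it was tested. Id2 was the 1 member of 7 that passed, beside 0.464% of all genes. Its log2 difference was 0.85 (SE 0.12, limma adjusted p = 0.0287), from 6.44 ± 1.09 to 12.3 ± 0.827 FPKM (SD, n = 3). All 3 aged libraries lay above all 3 young ones. The call was narrow: over 16 alternatives the adjusted p lay between 0.0205 and 0.208, and it was above 0.05 in 9 of them, among them leaving out any one FO B library except young replicate 3. The share of Id2 in the pair with Id3 did not overlap between the age groups either, with an exact two-sided permutation p of 0.1, the smallest that 3 against 3 libraries allow.

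Tbx21 was 2.71 times higher in aged than in young FO B cells, again without overlap, and did not pass (log2 difference 1.14, SE 0.21, 95% interval 0.65 to 1.62, limma adjusted p = 0.0836). Its adjusted p lay between 0.0217 and 0.247 over 15 alternatives and was under 0.05 in 1 of them, without aged FO B replicate 3, the lowest of the aged libraries. Id3 was lower in all 3 aged libraries (log2 difference -0.26, SE 0.06, adjusted p = 0.131), and Runx3 was higher in all 3 (0.20, SE 0.08, adjusted p = 0.302). Groups that do not overlap were found for 18.6% of all genes in this comparison (9.64% higher and 8.96% lower with age). Zeb2 (0.12, 95% interval -0.18 to 0.43), Zeb1 (-0.06, -0.31 to 0.20) and Zbtb32 (0.31, -0.33 to 0.95) overlapped between the age groups, with adjusted p of 0.765, 0.884 and 0.703. The 3 aged libraries held 9, 26 and 40 reads of Zbtb32. The sorted FO B cells were not free of change in their sorting marker, since Fcer2a was lower in the aged ones (log2 difference -0.46, SE 0.05, limma adjusted p = 0.0109), a call that 6 of 16 alternatives removed.

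The chemokine receptor gene Cxcr3, a direct T-bet target in B and T cells, was higher in the aged FO B cells. It was at 0.966, 0.814 and 1.70 FPKM in young FO B cells, at 11.4, 20.8 and 8.29 FPKM in aged FO B cells, and at 140, 157 and 12.8 FPKM in ABCs. The aged FO B libraries lay above all the young ones, and ABC replicate 3 lay within the range of aged FO B cells while the other 2 ABC libraries were far above it. The rise between young and aged FO B cells was 2.68 on the log2 scale (SE 0.30, limma adjusted p = 0.00872). Over the alternatives that adjusted p ranged from 0.00381 to 0.300, and it was above 0.05 with no filter on low values and with all 9 libraries in the fit. Between ABCs and aged FO B cells Cxcr3 did not pass (2.31, SE 0.90, adjusted p = 0.0832), while without ABC replicate 3 the difference was 3.46 with an adjusted p of 0.000218. Cxcr3 passed under 3 alternatives in all, the replicate block among them.

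Of 16 known T-bet target genes, 7 were high enough to be tested between ABCs and aged FO B cells, and 5 of these were higher and none lower. The 5 had means under 1 FPKM in aged FO B cells and entered the test only because of their ABC levels, so their number is no evidence about the list and their levels are given without a test. The sphingosine phosphate receptor S1pr5 was at 30.6, 33.6 and 30.8 FPKM in ABCs against 0.164 ± 0.20 FPKM in aged FO B cells. The shared IL-2 and IL-15 receptor chain Il2rb was at 26.4, 30.9 and 34.0 FPKM against 0.365 ± 0.11 FPKM, and the pore-forming perforin gene Prf1 at 25.5, 24.1 and 38.0 FPKM against 0.816 ± 0.19 FPKM. The chemokine Ccl5 was at 1.92, 4.52 and 5.34 FPKM, and was listed at 0 in all 3 aged FO B libraries. Interferon gamma, Ifng, was at 2.08, 2.77 and 2.31 FPKM against 0.173 ± 0.21 FPKM. Ccl4 was at 1.64, 4.94 and 2.17 FPKM against 1.05 ± 0.67 FPKM and did not pass (limma adjusted p = 0.1). It passed under 1 alternative, the replicate block. The granzyme gene Gzmb and the chemokine gene Xcl1 were listed at 0 in all 9 libraries, and Klrg1, Cx3cr1, Il18r1 and Il18rap were below 1 FPKM in all of them. In these ABC libraries Prf1 was thus measured without Gzmb.

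**Figure D4:**
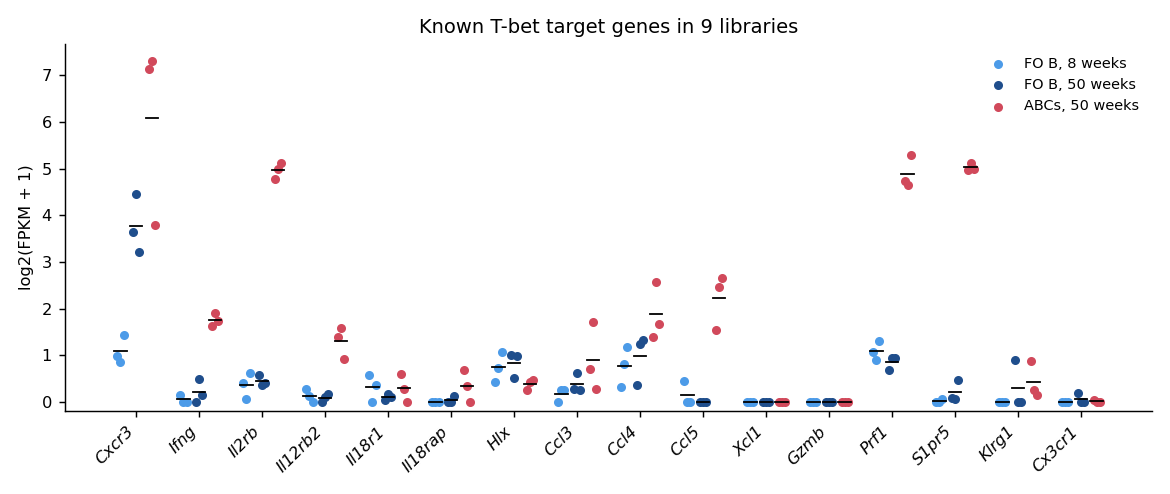
Level, as log2(FPKM + 1), of 16 known T-bet target genes in the 9 libraries (points) with the mean of the transformed values in each group (bars). Il2rb, Prf1 and S1pr5 separate the ABCs from both FO B groups, Cxcr3 splits the ABC libraries, and Gzmb and Xcl1 are at 0.

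Among 17 genes of the signals that induce T-bet, all were tested between ABCs and aged FO B cells, and 6 were higher and 5 lower, beside 35.9% of all genes in either direction. The endosomal nucleic acid sensor genes on this list were higher in ABCs: Tlr7 at 28.2 ± 8.1 against 8.28 ± 2.0 FPKM (log2 difference 1.64, limma adjusted p = 0.00166), Tlr9 at 6.28 ± 0.79 against 2.18 ± 0.28 FPKM (1.19, adjusted p = 0.000847), and Unc93b1, which carries both receptors to the endosome, at 936 ± 88 against 482 ± 5.8 FPKM (0.95, adjusted p = 0.000226). The kinase gene Jak2, which serves the interferon gamma and IL-12 receptors, was lower, at 9.06 ± 3.5 against 26.7 ± 2.8 FPKM (-1.52, adjusted p = 0.00406). Of the cytokine receptor genes, Il21r (110 ± 13 against 176 ± 17 FPKM, -0.67, adjusted p = 0.00313), Il27ra (30.1 ± 2.0 against 46.9 ± 3.1 FPKM, -0.62, adjusted p = 0.00145) and Ifngr1 (-0.35, adjusted p = 0.0316) were lower as well. The fifth of the lower genes, Il6st, at 0.975, 0.988 and 0.922 FPKM in ABCs against 2.13 ± 0.28 FPKM, passed the filter on low values only through the aged FO B cells. The counts of higher and lower genes are thus no evidence about this list. Of the IL-12 pathway, the receptor chain Il12rb1 (3.17 ± 0.58 against 1.15 ± 0.20 FPKM, 0.95, adjusted p = 0.00482) and the kinase gene Tyk2 (21.4 ± 2.7 against 12.1 ± 0.88 FPKM, 0.77, adjusted p = 0.00196) were higher. Stat4, the STAT of IL-12 signalling, was at 24.5, 37.4 and 4.19 FPKM in ABCs against 47.6 ± 2.3 FPKM in aged FO B cells and did not pass (adjusted p = 0.117). The low value was again in ABC replicate 3, and Stat4 without it passed (-0.63, adjusted p = 0.02). Between aged and young FO B cells Irf1, a target of interferon signalling, was the 1 gene of the 17 that passed (0.48, SE 0.08, adjusted p = 0.0404), beside 0.464% of all genes. That call was lost in 11 of 16 alternatives. Stat4, Irf1, Il12rb1, Tyk2 and the 4 lower receptor genes are named here after their values were seen.

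Of 17 partners and targets of the ZEB proteins, 12 were tested, and 1 was higher and 6 lower in ABCs than in aged FO B cells. Over all genes 19.4% were higher and 16.5% lower. Epcam and Crb3, among the 6, passed the filter on low values only through the FO B cells, so that the count is no evidence about the list. The epithelial adhesion gene Epcam was at 0.527, 0.298 and 0 FPKM in ABCs against 6.02 ± 1.9 FPKM in aged FO B cells and the polarity gene Crb3 was at 0.258, 0.351 and 0 FPKM against 4.97 ± 0.48 FPKM. Both are textbook targets of ZEB repression in epithelial cells, where the E-cadherin gene Cdh1 is the best known, but Cdh1 was below 1 FPKM in all 9 libraries here and Esrp1 was at 0. Of the SMAD partners, Smad4 (log2 difference -1.62, limma adjusted p = 0.00412) and Smad1 (-1.16, adjusted p = 0.00849) were lower in ABCs. Smad4 was at 31, 30 and 14 FPKM in aged FO B cells and at 6.82, 8.25 and 12.1 FPKM in young ones. The ABCs, at 7.35, 6.72 and 6.95 FPKM, overlapped the young FO B cells near the low end of their range.

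The E proteins, which Id2 and Id3 bind, did not move as a group. Tcf4 (E2-2) was the only E protein gene that passed, at 49.3, 41.6 and 64.6 FPKM in ABCs against 21.7 ± 1.6 FPKM in aged FO B cells (log2 difference 1.20, limma adjusted p = 0.00129). Tcf3 (E2A) was at 69.2 ± 6.5 against 58.6 ± 0.69 FPKM (adjusted p = 0.0582) and Tcf12 (HEB) at 11.5 ± 1.3 against 13 ± 0.62 FPKM (adjusted p = 0.226). Over the whole list of 16 E proteins, Id genes and B-lineage targets, 9 were tested, and 1 was higher and 4 lower, beside 19.4% and 16.5% of all genes. Vpreb3 was lower, at 95.7, 140 and 28 FPKM against 420 ± 49 FPKM (-2.51, adjusted p = 0.00886). The B-lineage factor genes Ebf1 (41.7 ± 11 against 69.2 ± 5.5 FPKM, adjusted p = 0.0123) and Pax5 (20.3 ± 1.3 against 29.6 ± 3.0 FPKM, adjusted p = 0.00625) were lower as well, calls that upper quartile scaling removed (adjusted p = 0.0839 and 0.125). Cd79a was at 0.976 times its aged FO B level (adjusted p = 0.802).

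The genes of the Zbtb32 and Blimp-1 axis are Prdm1, Ciita and the MHC class II genes. Of these 9 genes all were tested, and 5 were higher and none lower in ABCs than in aged FO B cells by limma at an adjusted p under 0.05, beside 19.4% of all genes that were higher and 16.5% that were lower. One of the 5, Prdm1, passed the filter on low values only through its ABC level, at 5.70, 4.74 and 2.93 FPKM in ABCs against 0.378 ± 0.29 FPKM. The count is thus no evidence about the list. Ciita, the class II transactivator, was at 167 ± 13 against 123 ± 8.0 FPKM (log2 difference 0.44, limma adjusted p = 0.00623). H2-Ab1 (0.65, adjusted p = 0.00398), H2-Eb1 (0.45, adjusted p = 0.00872) and H2-Aa (0.34, adjusted p = 0.0331) were higher too. The H2-Aa call was not followed through the alternatives. With no filter on low values H2-Ab1 and H2-Eb1 did not pass (adjusted p = 0.121 and 0.0568), and neither did H2-Ab1 under quantile normalization (adjusted p = 0.114). The invariant chain gene Cd74 was at 1.09 times its aged FO B level (adjusted p = 0.451). H2-DMb1, a chain of the peptide exchange factor, was at 268, 312 and 265 FPKM in ABCs against 319, 323 and 317 FPKM in aged FO B cells, below them in every library, and did not pass (adjusted p = 0.102). In this comparison 52.6% of all genes had groups that did not overlap. The effect of Zbtb32 on these genes was not tested.

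Among 41 other genes of the BTB zinc finger family, 31 were tested, and 3 were higher and 6 lower in ABCs than in aged FO B cells, beside 19.4% and 16.5% of all genes. The largest rise was that of Zbtb20, at 90.8, 69.5 and 136 FPKM against 22.3 ± 1.8 FPKM (log2 difference 2.05, limma adjusted p = 0.000599), and Zbtb38 was higher too (1.11, adjusted p = 0.000368). Zbtb46, at 3.17 ± 0.24 against 0.853 ± 0.53 FPKM, passed the filter on low values only through its ABC level, so that the count is no evidence about the family. Bcl6, the repressor that defines germinal centre B cells, was lower, at 8.04, 5.27 and 6.56 FPKM against 31.2 ± 5.7 FPKM (-2.08, adjusted p = 0.000229).

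**Figure D5:**
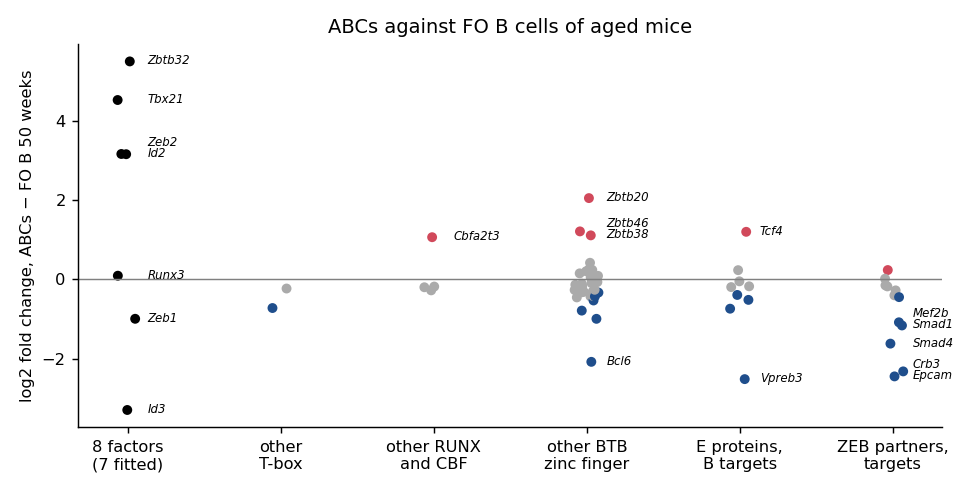
Log2 difference of FPKM + 1 between ABCs and aged FO B cells for the 7 fitted members (black) and for the tested genes of 5 related lists (red, higher and blue, lower at an adjusted p under 0.05 by limma, grey, not passed; genes named where the difference is above 1). The members span from -3.29 for Id3 to 5.49 for Zbtb32, and in the lists only Vpreb3, Epcam, Crb3, Bcl6 and Zbtb20 lie more than 2 from 0.

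The libraries were checked for the cells they were said to hold. The 8 B-lineage markers summed to 9771 to 10842 FPKM in ABCs and to 8374 to 8680 FPKM in FO B cells. All 8 were tested between ABCs and aged FO B cells by limma, and Cd72 (2533 ± 496 against 579 ± 36.1 FPKM, adjusted p = 7.51e-05) and Cd22 (885 ± 36.2 against 423 ± 17.2 FPKM, adjusted p = 6.33e-05) were higher while Pax5 and Ebf1 were lower. Ms4a1, Cd79a and Cd79b were at 0.839, 0.976 and 0.877 times their aged FO B means and did not pass. Over all genes 19.4% were higher in ABCs and 16.5% lower. The gate genes Itgam (CD11b) at 55.1 ± 9.8 FPKM and Itgax (CD11c) at 50.7 ± 7.9 FPKM in ABCs were under 1 FPKM in all FO B libraries, and Spn, the gene of the CD43 antigen on which both populations were sorted negative, was at 67.8 ± 17 FPKM in ABCs against 3.05 ± 0.28 FPKM in aged FO B cells. Ptprc, whose product carries the B220 epitope, was at 318 ± 9.1 against 293 ± 2.7 FPKM (limma adjusted p = 0.137). Tbx21, Zeb2, Zbtb32 and Id2 are also expressed by NK cells, macrophages, dendritic cells or plasma cells, so the markers of these cells bear on the members. The 9 NK cell markers summed to 27.8 to 38.0 FPKM in ABCs and 0.830 to 1.52 FPKM in aged FO B cells, of which Prf1 was 29.2 FPKM in ABCs, and 7 of the 9 were below 1 FPKM in every library. The 10 T cell markers summed to 5.20 to 39.4 FPKM in ABCs, led by Cd3g at 17.2 FPKM, and 8 of the 10 were below 1 FPKM in every library. The 12 macrophage and monocyte markers summed to 277 to 324 FPKM in ABCs against 22.3 to 30.4 FPKM in aged FO B cells, with Adgre1 (F4/80) at 198 FPKM and Ly6c2 at 74.2 FPKM. Of the 6 macrophage and monocyte markers tested Adgre1, Ly6c2 and Cd68 were higher in ABCs, beside 19.4% of all genes. Lyz2, C1qb and C1qc did not pass, and Csf1r, Cd14, Fcgr1 and Mertk were below 1 FPKM in every library. The 10 dendritic cell markers summed to 9.55 to 13.9 FPKM against 2.93 to 5.42 FPKM. Of these, Batf3 was at 3.42, 1.99 and 9.46 FPKM in ABCs and listed at 0 in all aged FO B libraries, and with Zbtb46 it entered the test only through its ABC level, while Flt3 did not pass (limma adjusted p = 0.0862). The 7 plasma cell markers summed to 211 to 242 FPKM against 133 to 151 FPKM. The plasma cell sum was led by Xbp1, at 134 against 114 FPKM, which did not pass (limma adjusted p = 0.084). Of the 6 plasma cell markers tested 4 were higher in ABCs, beside 19.4% of all genes. Prdm1 passed the filter only through its ABC level, so that the count is no evidence about these markers. The others were Derl3 (21.2 ± 4.76 against 3.25 ± 0.922 FPKM, adjusted p = 0.000264), Jchain (61.6, 40.5 and 12.5 FPKM against 5.93 ± 2.92 FPKM, adjusted p = 0.0188) and Sdc1 (9.54, 8.37 and 29.5 FPKM against 3.11 ± 0.572 FPKM, adjusted p = 0.0142). The 8 neutrophil markers summed to 2.60 to 3.99 FPKM in ABCs and 4.23 to 25.7 FPKM in aged FO B cells. The part of other cells in the levels of the members was not tested.

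The genes whose levels over the 9 libraries were most like those of the members were named by Pearson's correlation of log2(FPKM + 1) over these libraries, among 10375 genes, as a description, since the libraries share the differences between the 3 groups. For Tbx21 they were Cd38 (0.996), Snx10, Bhlhe40, Fgl2 and Arhgef12. Bhlhe40, a transcriptional repressor, was at 16.5 FPKM in young FO B cells, 23.5 FPKM in aged FO B cells and 114 FPKM in ABCs, and the fibrinogen-like gene Fgl2 at 0.296, 1.51 and 110 FPKM, both in the order that Tbx21 had. For Zeb2 they were Sspn (0.999), Pld4, Sox5, Nt5e and Adgre1. Nt5e, which encodes CD73, was at 0.403, 0.843 and 63.6 FPKM, and Pld4, an endosomal nuclease, at 180, 189 and 1075 FPKM. For Id3 they were Cd24a (0.997), Rnf145, Fchsd2, Trim59 and Coro1a. Cd24a, which encodes the heat-stable antigen of immature and resting B cells, was at 424, 364 and 75 FPKM.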

How the data were processed

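RNA of sorted splenic B cells was made into full-length cDNA and tagmented libraries, and 1 table of FPKM per library was deposited by the authors (3 libraries in each of 3 groups, 24346 genes, no read counts). Per the submitters' processing notes, the build was mm10 and the tools were TopHat2 2.1.1, Bowtie2 2.2.8, SAMtools 0.1.18 and Cuffdiff 2.2.1. The study's methods name other versions of TopHat, Bowtie2 and SAMtools and do not name the annotation. The study counts the replicates of a group as separate mice, and whether replicate numbers pair mice across groups is not stated.

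Groups were taken from the sample titles. Differences were fitted on log2(FPKM + 1) in limma 3.58.1 (R 4.3.3, eBayes with trend) with the 6 libraries of the 2 groups compared and genes whose mean over them was 1 FPKM or more, and p-values were adjusted by Benjamini-Hochberg over all of these genes. A call means an adjusted p under 0.05. On simulated data with 100 genes changed by a factor of 4, 94 were called in the comparison of ABCs with aged FO B cells and 99 in that of aged with young FO B cells. With 100 genes changed by a factor of 2, 78 and 95 were called. The changed genes were not drawn from the lowest genes, so these rates do not cover genes near the floor. Single values were compared by exact permutation. A fold change on this scale understates that of low genes.

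Reads per gene were recovered from the FPKM steps, to within 0.05 of a whole read, for all members but Zeb2, and were used only to judge depth. They give about 7320000 to 8900000 mapped reads a library. In a simulation, 3073 of 4000 genes were recovered exactly, 18 wrongly and 909 not at all. Values cover counting error only as far as the reads are independent molecules.

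All 8 members and the genes of the sorting gates were named (1 gate gene, also left out of the B-lineage markers, is not reported here), with up to 4 called genes of each pathway or family list by size of difference, genes at 0 throughout, the leading markers, and the 5 genes most like Tbx21, Zeb2 and Id3. Members and lists were chosen with earlier results of these data known, so that counts over a list are descriptions and not independent support. Genes named outside this rule were Cxcr3, Ccl4, Stat4, Irf1, Il12rb1, Tyk2, H2-Aa, H2-DMb1, Il21r, Il27ra, Il6st, Ifngr1, further marker genes, Zeb2os, Id1, Id4 and genes given as values that did not pass. Motifs were searched with Python 3.11.15 in RefSeq promoters. Other pseudocounts (0.1 and 0.01), filters, scalings, eBayes without a trend, all 9 libraries, a replicate block and leaving out each library were tried.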

Additional observations from a re-analysis of the deposited data

How the results depend on the processing

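Between ABCs and aged FO B cells 3739 genes were called, 2072 at an adjusted p under 0.01, and 200 with a log2 difference above 2.3 besides. Of the T-bet targets 5 were called, 3 under the latter thresholds and 3 when the filter was raised to 5 FPKM. Over all genes 19.4% were called higher. These 5 entered the test only through their ABC levels, so the counts are no evidence about the list. Between ABCs and young FO B cells 4248 genes were called, with 2465 and 230 under the stricter thresholds and 2774 under upper quartile scaling. Between aged and young FO B cells 47 genes were called, with 17 and 2 under the stricter thresholds, 15 with no filter on low values, 30 with eBayes without a trend and 18 with all 9 libraries in the fit. Leaving out 1 library gave 19 (without aged FO B replicate 1) to 69 (without aged FO B replicate 2) genes. The 1 member called there, Id2, lost its call with no filter, upper quartile scaling, eBayes without a trend and all 9 libraries in the fit (0 members called, adjusted p of Id2 0.125, 0.0591, 0.0612 and 0.208). Leaving out 1 library gave 0 to 1 members. Without young FO B replicate 3 the 1 was Id2, and without aged FO B replicate 3 it was Tbx21, Id2 having lost its call (adjusted p = 0.073). The cause of these differences was not tested, beyond the fewer samples or the other genes tested.

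Upper quartile scaling moved the median of all genes to 0.15 between ABCs and aged FO B cells, where 80.4% of calls were then higher against 54.0%, and to -0.12 between aged and young FO B cells, where 47.1% were higher against 74.5%. Between ABCs and young FO B cells the share was 66.6% against 53.0%. Runx3 in ABCs against aged FO B cells was 0.26 under this scaling and 0.09 without it. Among single genes, 1272 values kept their side of the threshold or moved within the replicate spread, 44 lost a call, 10 gained one and 15 moved further, and none reversed.

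The replicate numbers are not stated to mark shared mice, and same-numbered libraries did not deviate together in every pair (correlations of -0.09 to 0.14). With a replicate block 3448, 3508 and 37 genes were called in the 3 comparisons, all 7 tested T-bet targets (Cxcr3 and Ccl4 included) and 1 member (Id2, adjusted p = 0.0477). This count of T-bet targets is likewise no evidence about the list, since most of them entered the test only through their ABC levels. Depth, recovered from the FPKM steps only, limits what can be said of Eomes.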
